A study of Mus musculus with 16 samples.

Results

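The genes described here encode SR proteins, heterogeneous nuclear ribonucleoproteins (hnRNPs) and proteins of the core spliceosome. They were taken as the probe sets of a mouse exon array that carry exactly 1 gene symbol and whose symbol starts with Sfrs, Hnrnp, Hnrp, Sf3, Snrp or Prpf, without Snrpn. The rule gave 1530 of 625534 probe sets and 69 of 21634 gene symbols. By name they fall into 19 SR and SR-like genes, 20 hnRNP genes, 8 genes of SF3 subunits, 10 genes of Sm and other snRNP proteins, and 12 PRPF genes. A gene had 2 to 84 probe sets, with a median of 22.

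The spliceosome removes introns in steps. A ring of Sm proteins sits on most spliceosomal snRNAs. The SF3a and SF3b complexes of the U2 particle hold the branch point, and PRPF proteins serve in the tri-snRNP and in catalysis. SR proteins bind exons and favour their use, hnRNPs coat the transcript and often act against SR proteins, and CLK and SRPK kinases phosphorylate SR proteins. Many SR and hnRNP genes also tune their own mRNA through alternative exons that lead to its decay.

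Total RNA was measured in dKO spinal cord, WT spinal cord, dKO brain and WT brain, with 4 arrays in each group. dKO embryos lacked both Nova1 and Nova2, whose products bind RNA in neurons and steer the choice of exons, and WT embryos carried both genes. All were CD1 embryos, an outbred stock, at day E18.5, and the design gives 1 array to each biological replicate. RNA came from the whole brain or the spinal cord of each embryo.

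Levels are log2(intensity + 16), and a gene's level on an array is the median over its probe sets. Genes with at least 3 probe sets and a mean level above 6.73, the median of all probe sets, were tested, which left 12204 genes and 68 of the 69. Snrpd2, with 2 probe sets, was not tested. Changes are in log2 units, and "higher" and "lower" refer to an adjusted p under 0.05 from limma with Benjamini-Hochberg adjustment over all tested genes or probe sets.

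The targeted gene Nova1 had levels of 5.78, 5.83, 5.96 and 5.83 in dKO spinal cord, against 11.25, 11.11, 11.03 and 10.98 in WT spinal cord, and of 4.58, 5.29, 5.27 and 5.29 in dKO brain, against 10.19, 9.98, 10.71 and 10.09 in WT brain. Nova2 averaged 7.32 ± 0.11 in dKO spinal cord and 8.46 ± 0.19 in WT spinal cord, and 7.91 ± 0.12 in dKO brain and 8.66 ± 0.15 in WT brain (SD, n = 4 each). Nova1 thus matched the genotype label on all 16 arrays, and Hoxc8, a gene of the trunk, matched the tissue label, at 10.02 to 10.49 on spinal cord and at most 6.53 on brain arrays. Some arrays stood apart in tissue content. dKO spinal cord 2 and 4 and WT spinal cord 1 and 4 were rich in muscle RNA, with Acta1, skeletal actin, at 10.1 to 11.4 on these 4 arrays against 7.6 to 8.0 on the other 4. The 2 brain arrays numbered 3 were low in the forebrain gene Neurod6, at 8.26 in dKO and 7.06 in WT against 10.5 to 11.3 on the other brain arrays. In whole tissue, fewer cells of a type and less RNA per cell cannot be told apart.

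In spinal cord without Nova, 2 of the 68 genes were higher and 0 were lower. Both encode SR proteins, Sfrs7 (current symbol Srsf7) and Sfrs6 (Srsf6), which bind exonic enhancers; Srsf7 is also known for its part in mRNA export. Of all 12204 genes 6.62% were called, 1.29% higher and 5.33% lower, so that calls over the whole array ran mostly downwards and the 2 here ran upwards. The median change of the 68 genes was 0.05, against -0.04 over all genes. At an unadjusted p under 0.05, 14 of the 68 differed, against 20.8% of all genes, and 12 of them were higher, against 5.94% of all genes.

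Sfrs7 had levels of 9.58, 9.68, 9.60 and 9.86 in dKO spinal cord, against 9.42, 9.18, 9.23 and 8.87 in WT spinal cord. Each dKO array lay above each WT array, and the change was 0.51 (SE 0.14, adjusted p = 0.0367, limma). In brain it averaged 10.35 ± 0.14 in dKO and 10.30 ± 0.31 in WT (SD, n = 4 each), and the dKO arrays lay within the range of the WT arrays. Of the gene's 20 probe sets, 16 were higher on average in dKO spinal cord and 7 had no overlap between the groups, a separation found in 3.35% of all named probe sets upwards and in 4.8% downwards. These probe sets also give the gene level, so that their counts are not separate support for the call.

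Sfrs6 had levels of 9.90, 9.99, 9.74 and 9.99 in dKO spinal cord, against 9.24, 9.77, 9.58 and 9.38 in WT spinal cord. The groups overlapped by 1 WT array, and the change was 0.41 (SE 0.12, adjusted p = 0.041, limma). Its 16 probe sets did not move as 1 block: their changes ran from -0.92 to 1.16 with a median of 0.11, and by the mean over probe sets the gene's change was 0.14 (adjusted p = 0.422). The same summary gave 0.31 for Sfrs7 (adjusted p = 0.0987). Without the 4 muscle-rich arrays neither gene was called, and the changes were 0.39 for Sfrs7 (adjusted p = 0.378) and 0.15 for Sfrs6 (adjusted p = 0.725). Over all alternatives the change of Sfrs7 ran from 0.31 to 0.59 (adjusted p from 0.00355 to 0.378) and that of Sfrs6 from 0.14 to 0.51 (adjusted p from 0.017 to 0.725).

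The promoters of this pair, the 250 bases before the gene start in RefSeq (GRCm38.p6), are shown because these were the genes called; the motifs were chosen with values in view. Capitals mark matches to CCGGAAG (an ETS-type core), GCATGCG (an NRF1-type core) and ACGTCA (a cAMP response core), searched on both strands. In Srsf7 the NRF1-type core matched on both strands at overlapping positions.
Srsf7, chr17:80207306-80207555, minus strand: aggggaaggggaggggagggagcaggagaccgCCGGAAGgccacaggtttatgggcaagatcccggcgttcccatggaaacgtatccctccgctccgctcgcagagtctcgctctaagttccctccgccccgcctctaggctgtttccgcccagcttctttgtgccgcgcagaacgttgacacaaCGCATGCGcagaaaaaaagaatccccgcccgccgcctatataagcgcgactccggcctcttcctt
Srsf6, chr2:162931258-162931507, plus strand: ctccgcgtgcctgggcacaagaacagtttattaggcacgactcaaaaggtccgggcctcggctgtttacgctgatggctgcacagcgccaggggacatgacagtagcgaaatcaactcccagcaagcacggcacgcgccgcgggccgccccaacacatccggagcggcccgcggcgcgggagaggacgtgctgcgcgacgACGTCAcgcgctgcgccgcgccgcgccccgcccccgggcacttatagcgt
Of the 60 genes of the set with a promoter in the table, 28.3% held CCGGAAG, against 7.05% of all 27025 promoters. ACGTCA was in 16.7% against 6.56%, GCATGCG in 3.33% against 3.07%, the CCAAT box (CCAAT) in 43.3% against 34.5%, and the TATA box (TATAAA) in 10% against 13.0%. These are matches of letters, not shown sites, and the 27025 promoters include those of genes not tested here.

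Prpf4b, a kinase that phosphorylates spliceosomal proteins, and Sfrs14 (Sugp2), an SR-related G-patch protein, had the next lowest p-values. Prpf4b had levels of 9.36, 9.35, 9.28 and 9.49 in dKO spinal cord, against 9.22, 8.80, 8.90 and 8.97 in WT spinal cord, a change of 0.40 (SE 0.12, adjusted p = 0.0517, limma). Sfrs14 had levels of 8.57, 8.64, 8.57 and 8.57 in dKO spinal cord, against 9.16, 8.95, 8.94 and 8.73 in WT spinal cord, a change of -0.36 (SE 0.11, adjusted p = 0.0597, limma). Neither gene's groups overlapped, and neither passed the threshold. With the gene level taken only from probe sets above 6.73, the change of Sfrs14 was -0.08 (adjusted p = 0.774); its adjusted p ran from 0.0127 to 0.774 over the alternatives.

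**Figure D1:**
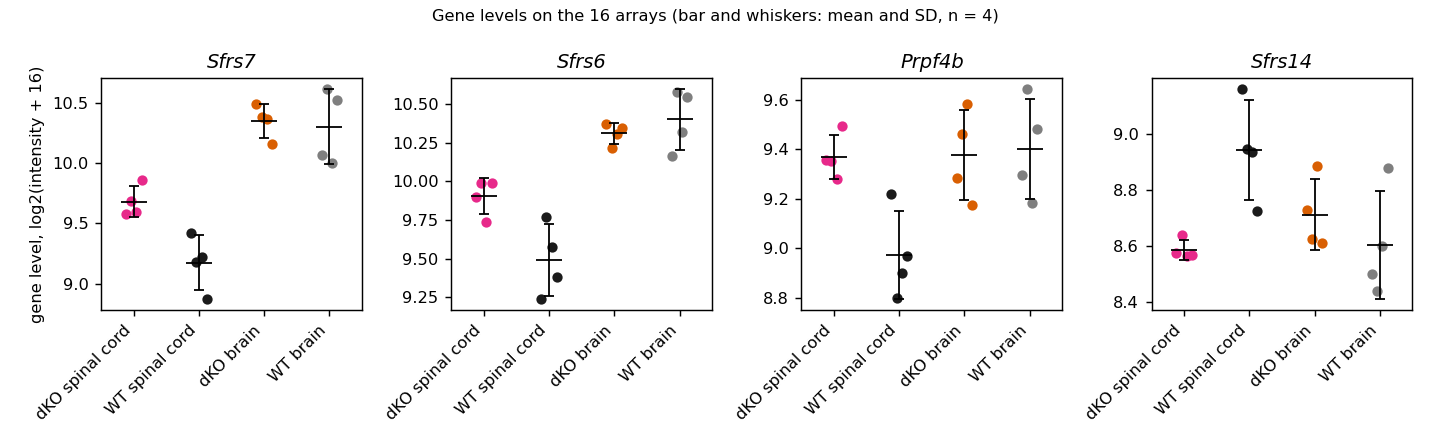
Gene levels, log2(intensity + 16), of Sfrs7, Sfrs6, Prpf4b and Sfrs14 on each array, with mean and SD (n = 4 per group). For Sfrs7 and Prpf4b the 4 dKO spinal cord arrays sit above all 4 WT spinal cord arrays, for Sfrs14 below them, and in brain the genotypes overlap for all 4 genes.

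By class, the median changes in dKO spinal cord were 0.12 for the SR genes, 0.13 for the hnRNP genes, 0.01 for both the SF3 and the PRPF genes, and -0.01 for the Sm and snRNP genes. Of the SR genes 14 of 19 and of the hnRNP genes 15 of 20 had a positive change, against 5035 of all 12204 genes. The hnRNP genes with an unadjusted p under 0.05 were Hnrnpc, at 10.30 ± 0.07 in dKO and 9.98 ± 0.20 in WT spinal cord, Hnrnpr, Hnrnph3, Hnrnpu and Hnrnpa3, with changes of 0.32, 0.29, 0.28, 0.26 and 0.25. Their adjusted p-values were 0.12 to 0.227. The SR genes in this range besides Sfrs6 and Sfrs7 were Sfrs2, Sfrs18 and Sfrs5, with changes of 0.30, 0.26 and 0.26, and Sfrs14, with -0.36. Among the Sm and snRNP genes Snrpe had 0.46 and Snrpc -0.40.
Groups without overlap were found for 7 genes upwards and 3 downwards, where all genes gave 3.5% and 8.3%.

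How many of these genes were called depended on the scaling. WT spinal cord 1 had the highest median of the 8 cord arrays, 8.47 against 8.14 to 8.31 on the other 7. With each array's median subtracted, 10 were higher and 0 lower: Sfrs7, Snrpe, Sfrs6, Prpf4b, Hnrnpc, Hnrnpr, Hnrnph3, Hnrnpu, Sfrs5 and Hnrnpa3, with changes of 0.31 to 0.56. Of all genes 4.4% were then higher and 5.25% lower, and 45.6% of calls were upwards in place of 19.6%. Quantile normalization gave 9 higher and 1 lower, with 26.1% of all calls upwards. Class medians with the array median subtracted were 0.18 for SR, 0.19 for hnRNP, 0.07 for SF3 and for PRPF and 0.05 for Sm and snRNP genes, so that the sign of the last class depended on the scaling. Without the 4 muscle-rich arrays, no gene of the set was called with either scaling. With array medians subtracted and these 4 arrays left out, the changes were 0.51 for Prpf4b (adjusted p = 0.0938), 0.43 for Sfrs7 (adjusted p = 0.194) and 0.19 for Sfrs6 (adjusted p = 0.559), with 2 arrays a group (limma).

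**Figure D2:**
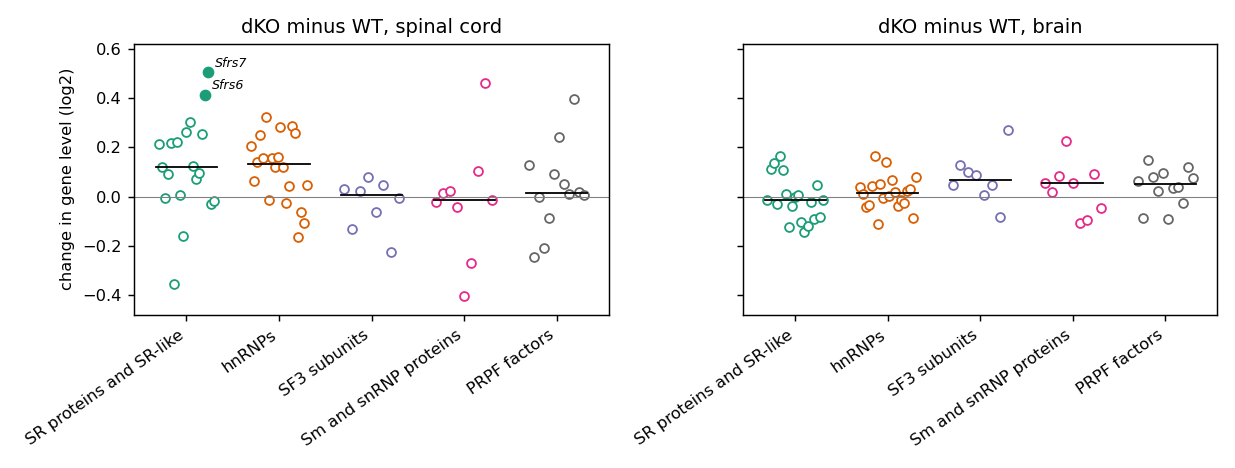
Change in gene level (log2, dKO minus WT) of the 68 tested genes by class, in spinal cord and in brain. Filled points were called and open points were not, and bars are class medians. In spinal cord the 2 filled points are Sfrs7 and Sfrs6 and the SR and hnRNP medians are 0.12 and 0.13; in brain all points are open and lie between -0.14 and 0.27.

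The kinases of SR proteins were looked at beside them. Of 6 tested CLK and SRPK genes, 2 were higher in dKO spinal cord and 0 lower, where 1.29% of all genes were higher and 5.33% lower. Clk1 had levels of 10.09, 10.33, 9.96 and 10.21 in dKO spinal cord, against 9.45, 9.84, 9.30 and 9.55 in WT spinal cord (change 0.61, SE 0.13, adjusted p = 0.00704, limma). Clk4 had 9.13, 9.22, 9.30 and 9.09 in dKO spinal cord, against 8.87, 8.59, 8.52 and 8.69 in WT spinal cord (change 0.52, SE 0.11, adjusted p = 0.00757, limma). Both were without overlap between genotypes. Clk2 had a change of 0.28, Clk3 of -0.09, Srpk1 of 0.02 and Srpk2 of -0.01, none of them called. Among 69 other tested spliceosome and splicing cofactor genes 1 was higher and 0 lower. The share of 1.45% higher was near the 1.29% of all genes. The gene was Sfpq, which encodes a nuclear RNA- and DNA-binding protein of paraspeckles. Sfpq had levels of 10.54, 10.89, 10.71 and 10.75 in dKO spinal cord, against 10.51, 10.42, 10.23 and 10.04 in WT spinal cord (change 0.43, adjusted p = 0.0318, limma).

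Some markers of cell types were called in the same comparison. The neural progenitor gene Hes5 was higher (change 0.54, adjusted p = 0.022), as were the young-neuron gene Dcx (0.57, adjusted p = 0.00133) and Elavl4 (0.40, adjusted p = 0.0376), and the neuronal enolase Eno2 was lower (-0.95, adjusted p = 0.00175, all limma). Of the lists, 1 of 10 progenitor genes was higher, and 2 of 13 neuron genes were higher and 1 lower. The progenitor genes had 5 positive and 5 negative changes (median 0.0006), and the neuron genes 5 positive and 8 negative (median -0.04). Neither the 16 proliferation genes nor the 7 muscle genes included a called gene. Changes of the proliferation genes were positive in 15 and negative in 1, and all 7 muscle genes had negative changes, with a median of -0.22. Of the 2 erythroid genes tested 1 was lower, Alas2, the heme-synthesis enzyme of red cells (-0.86, adjusted p = 0.00359, limma), and the mean level of the pair was 7.59 ± 0.06 on dKO and 8.09 ± 0.11 on WT spinal cord arrays (SD, n = 4 each), without overlap. The mean level of the muscle list ranged from 6.97 to 9.05 on dKO and from 7.15 to 9.89 on WT spinal cord arrays. The part of these in the changes of the splicing genes was not tested.

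In brain without Nova, 0 of the 68 genes were called, and 0 had an unadjusted p under 0.05, where of all genes 0.147% were higher, 0.27% lower and 0.418% called in either direction, and 4.92% had such an unadjusted p (limma). Changes ran from -0.14 to 0.27 with a median of 0.02, the same as over all genes. The lowest p-values were those of Sf3b5 (0.27, SE 0.16), Snrpb2 (0.23, SE 0.15), Sfrs12ip1 (0.17, SE 0.13) and Sfrs16 (-0.12, SE 0.10), each with an adjusted p of 1. No tested gene of the set had brain groups without overlap, against 2.09% of all genes upwards and 2.11% downwards. This fit did not pair the brain arrays by number, and with the number as a block no gene of the set was called either. Of 13 tested Hox genes, 1 was higher in dKO brain, and 11 had positive and 2 negative changes (median 0.55). Over all genes 7050 changes were positive and 5154 negative. The Hox genes averaged 6.75 ± 0.23 on dKO and 6.28 ± 0.40 on WT brain arrays (SD, n = 4 each), near the floor and with overlap. The part of this in the brain comparison was not tested.

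Whether the genotype difference itself differed between tissues was tested as the dKO change in spinal cord minus that in brain. No gene of the set passed, against 0.0246% of all genes, and 5 of 68 had an unadjusted p under 0.05 against 8.28% of all genes (limma). The differences were 0.46 for Sfrs7 (SE 0.20, adjusted p = 0.538), 0.50 for Sfrs6 (SE 0.17, adjusted p = 0.413), 0.42 for Prpf4b (SE 0.17, adjusted p = 0.491) and -0.46 for Sfrs14 (SE 0.16, adjusted p = 0.419). Those of Clk1 and Clk4 were 0.56 (adjusted p = 0.41) and 0.45 (adjusted p = 0.421). The changes of Sfrs7 and Sfrs6 in spinal cord were thus not shown to differ from those in brain.

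Snrpd2, which encodes a protein of the Sm ring, had too few probe sets for the test and is given as values only, since its pattern was noticed after they were seen. Probe set 5583331 had values of 5.21, 5.82, 5.24 and 5.46 in dKO brain, against 8.92, 7.83, 7.54 and 8.46 in WT brain, and of 5.77, 5.85, 4.93 and 5.39 in dKO spinal cord, against 8.10, 6.55, 8.32 and 6.97 in WT spinal cord. Probe set 5536366 averaged 5.05 ± 0.66 in dKO brain and 7.54 ± 0.42 in WT brain, and 5.48 ± 0.77 in dKO spinal cord and 6.90 ± 1.199 in WT spinal cord (SD, n = 4 each). The first had no overlap between genotypes in either tissue, and the second had none in brain. The brain differences were -2.75 and -2.50, with all dKO values of the first probe set and the dKO means of the second below the floor of 6.73. Of the 303629 named probe sets 1.66% had brain groups separated downwards. Snrpd2 lies on chromosome 7, as does the targeted gene Nova2, with 12 protein-coding genes between them in RefSeq. Of these 12, 7 were tested, and none was called in either tissue (changes from -0.21 to 0.22). Whether the low dKO values come from less transcript or from a difference under the probes or around the targeted allele was not tested.

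Single probe sets were compared by the exon index, a probe set's value minus its gene's level on the same array, which sets aside a change of the whole gene. The index was tested for 1383 probe sets of 65 genes of the set. In dKO spinal cord 6 were higher and 2 lower, 0.578% of them, against 0.396% of all 181531 tested probe sets, and 174 had an unadjusted p under 0.05, against 11.8% of all. All 8 were without overlap between genotypes, as were 5.67% of all. Such separation largely follows from the call on the same values and is not separate support. They belong to Sfrs5, Sfrs6, Sfrs7 and Sfrs14 and to the hnRNP gene Hnrpdl. The sources used here do not place probe sets in exons.

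In Sfrs14, the index of probe set 5222264 was 0.82, 0.64, 0.91 and 0.74 in dKO spinal cord, against 0.00, 0.03, 0.07 and 0.00 in WT spinal cord (change 0.76, SE 0.12, adjusted p = 0.00633, limma), and probe set 4471435 changed by 0.76 as well (adjusted p = 0.00689). On WT spinal cord 1 and 4 probe set 5222264 was itself the median that gives the gene level, so that its index of 0.00 there is fixed by the definition. On their own values these 2 probe sets changed by 0.40 and 0.41, while the gene level over all probe sets changed by -0.36, in the opposite direction. With the gene level taken from probe sets above the floor, the gene change was -0.08 (adjusted p = 0.774), and the index changes were then 0.48 (adjusted p = 0.046) and 0.48 (adjusted p = 0.133). In Sfrs6, probe set 4793655 had an index of -2.42, -3.12, -2.69 and -2.88 in dKO spinal cord, against -1.11, -2.001, -0.93 and -1.85 in WT spinal cord (change -1.31, SE 0.24, adjusted p = 0.0211, limma), and probe set 5326805 changed by 0.75 (adjusted p = 0.0256). The value of the first changed by -0.89 and of the second by 1.16, in opposite directions within 1 gene. In Sfrs7, probe set 4555811 had an index of -1.21, -1.92, -1.63 and -1.99 in dKO spinal cord, against -1.08, -0.96, -0.75 and -0.77 in WT spinal cord (change -0.80, SE 0.16, adjusted p = 0.0433, limma). Its own value averaged 7.99 ± 0.27 in dKO and 8.28 ± 0.16 in WT spinal cord, with overlap, while the gene level changed by 0.51. In brain its value averaged 7.72 ± 0.03 in dKO and 7.995 ± 0.08 in WT, without overlap, and its index was not called there (SD, n = 4 each). In Hnrpdl, whose product is related to Hnrnpd and whose gene level was not called, probe sets 5401558 and 5047312 rose by 0.63 (adjusted p = 0.0275) and 0.50 (adjusted p = 0.0346).

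Sfrs5, the gene of an SR protein, showed a split between its probe sets. Probe set 4315529 had an index of -0.48, -0.92, -0.72 and -0.99 in dKO spinal cord, against -2.36, -1.71, -2.94 and -1.80 in WT spinal cord (change 1.42, SE 0.26, adjusted p = 0.0251, limma). The following split was made after the values were seen and is a description. Of the gene's 23 probe sets above 6.73, 8 had no overlap between genotypes in spinal cord. Over all named probe sets 3.35% were so separated upwards and 4.8% downwards. The 8 were grouped by this separation, which favours large changes: they had 1.08 to 1.68 in spinal cord and -0.14 to 0.06 in brain. The other 15 had changes of -0.17 to 0.30 in spinal cord. The mean of the 8 was 11.20, 11.25, 11.25 and 11.26 in dKO spinal cord, against 9.59, 10.64, 9.31 and 10.42 in WT spinal cord, and 10.85, 10.92, 11.23 and 11.27 in dKO brain, against 10.47, 11.23, 11.29 and 11.41 in WT brain. The 4 dKO spinal cord arrays, of which 2 and 4 were muscle-rich, were close to each other. The WT spinal cord arrays were spread. Their muscle-rich arrays 1 and 4 were at 9.59 and 10.42, between arrays 2 and 3 at 10.64 and 9.31. By exon index 1 of the 8 passed the test, and the 8 had adjusted p-values of 0.0251 to 0.244.

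**Figure D3:**
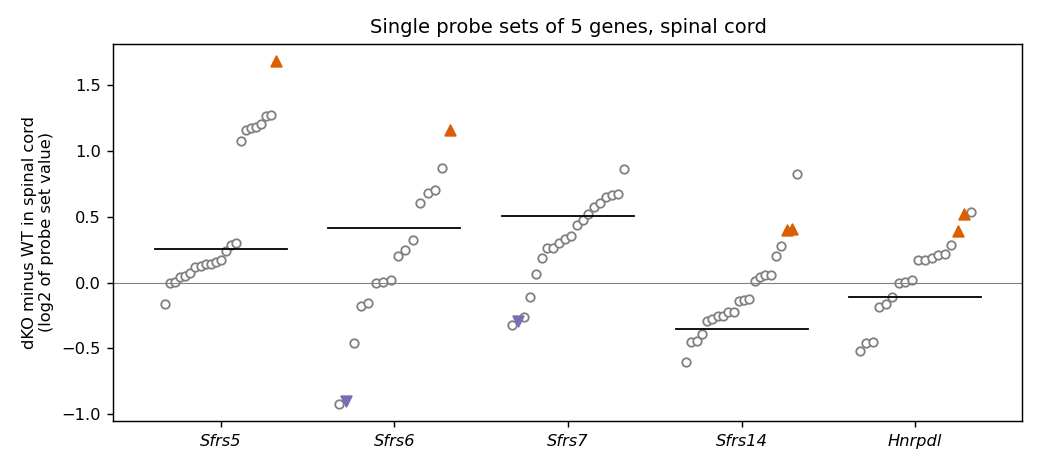
Change of single probe set values (log2, dKO minus WT, spinal cord) for probe sets above 6.73 of 5 genes, sorted within each gene. Upward orange and downward purple triangles mark probe sets called higher and lower by exon index, circles those not called, and black bars the change of the gene level. In Sfrs5 a group of 8 probe sets lies at 1.08 to 1.68, apart from the other 15.

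Without the 4 muscle-rich arrays none of these 8 probe sets passed, with adjusted p-values of 0.118 to 0.39, although the index changes of the Sfrs14 probe sets were then 0.82 and 0.86 and that of the Sfrs5 probe set 1.72. In brain 0 of 1383 probe sets passed by exon index, against 0.172% of all, and 44 had an unadjusted p under 0.05, against 3.33% of all (limma). The lowest adjusted p-values there were those of Sfrs16 probe set 4613128 (0.34, adjusted p = 0.527), Hnrnpd probe sets 4412912 (-0.42, adjusted p = 0.577) and 5123289 (-0.36, adjusted p = 0.789) and Prpf40b probe set 4376298 (0.41, adjusted p = 0.809). The difference of the index changes between tissues passed for 0 of 1383, against 0.00551% of all, with 90 at an unadjusted p under 0.05, where all probe sets gave 5.74% (limma).

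Levels by tissue were compared within each genotype with each array's median subtracted, because the deposited intensities differ in scale between tissues. In this scaling 10 genes were higher and 29 lower in dKO spinal cord than in dKO brain, and 8 higher and 35 lower in WT spinal cord than in WT brain. Over all genes 27% were higher and 24% lower in dKO, and 27.6% and 25.9% in WT. The median change of the set was -0.19 in dKO and -0.31 in WT, against 0.01 over all genes in both. Tissue and any difference in handling cannot be told apart.

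Of the Sm and snRNP genes all 9 tested had negative changes in both genotypes, 7 were lower in dKO and 6 in WT, and the class medians were -0.44 and -0.47. Snrpa1, a protein of the U2 particle, averaged 9.16 ± 0.05 in dKO spinal cord and 9.78 ± 0.14 in dKO brain (change -0.62, adjusted p = 8.35e-05), and 9.08 ± 0.09 in WT spinal cord and 9.78 ± 0.21 in WT brain (-0.70, adjusted p = 2.68e-05, limma, SD, n = 4 each). Snrpf, of the Sm ring, had changes of -0.56 in dKO (adjusted p = 0.00467) and -0.67 in WT (adjusted p = 0.00112). Snrpc, of the U1 particle, was lower in dKO (-0.57, adjusted p = 0.0055), and Snrpe, of the Sm ring, in WT (-0.81, adjusted p = 0.000478). In Snrpe the brain array of number 3 in WT stood at 8.61 against 9.16 to 9.47 on the other WT brain arrays.

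Among the SF3 genes, Sf3a3, which joins SF3a to the U2 particle, had changes of -0.71 in dKO (adjusted p = 0.00011) and -0.72 in WT (adjusted p = 9.06e-05). Sf3b1, which grips the branch point, averaged 10.38 ± 0.10 in dKO spinal cord and 10.88 ± 0.03 in dKO brain (change -0.51, adjusted p = 5.97e-05, limma). It was lower in WT as well. Sf3b4 had -0.47 in dKO (adjusted p = 0.0321, limma). In WT 1 SF3 gene was higher, Sf3b5 (0.39, adjusted p = 0.0395), but its change was -0.82 with the gene level taken from probe sets above 6.73 (adjusted p = 0.001). Class calls were 0 higher and 5 lower in dKO and 1 higher and 4 lower in WT.

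Of the hnRNP genes, 1 was higher and 9 lower in dKO, and 0 higher and 11 lower in WT. Hnrnph2, a binder of G-rich RNA, had centred levels of 8.40, 8.77, 8.52 and 8.73 in dKO spinal cord, against 9.40, 9.48, 9.44 and 9.01 in dKO brain (change -0.73, adjusted p = 0.00121), and of 8.60, 8.36, 8.49 and 8.07 in WT spinal cord, against 9.44, 9.42, 8.68 and 9.32 in WT brain (-0.83, adjusted p = 0.000383, limma). In neither genotype did the tissues overlap. Hnrnpr was lower in both genotypes, in WT by -0.71 (adjusted p = 1.18e-05, limma). Hnrnpa3 was the hnRNP gene higher in dKO (0.41, adjusted p = 0.000427, limma). Hnrnpa3 has 84 probe sets and near-identical copies elsewhere in the genome, so its signal is uncertain.

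The PRPF genes had 3 higher and 5 lower in dKO, and 2 higher and 4 lower in WT. Prpf18, a factor of the second step of splicing, had changes of -0.67 in dKO (adjusted p = 0.000239) and -0.81 in WT (adjusted p = 3.87e-05, limma). Prpf19, the ubiquitin ligase of the complex named after it, was lower in both genotypes, in dKO by -0.62 (adjusted p = 0.000115, limma). Prpf38b averaged 9.25 ± 0.05 in dKO spinal cord and 8.76 ± 0.16 in dKO brain (0.48, adjusted p = 0.00173), and 9.10 ± 0.16 in WT spinal cord and 8.69 ± 0.22 in WT brain (0.41, adjusted p = 0.00545, limma). Prpf40b, related to a yeast factor of the U1 particle, had 0.45 in dKO (adjusted p = 0.000458) and 0.40 in WT (adjusted p = 0.00116). Prpf4b had 0.31 in dKO (adjusted p = 0.0102), which changed sign as deposited.

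The SR and SR-like genes moved in both directions, with 6 higher and 3 lower in dKO and 5 higher and 10 lower in WT. Sfrs12 (Srek1) had centred levels of 8.57, 8.59, 8.69 and 8.68 in dKO spinal cord, against 7.84, 7.86, 7.98 and 8.03 in dKO brain (change 0.71, adjusted p = 4.07e-05), and of 8.54, 8.28, 8.43 and 8.67 in WT spinal cord, against 7.74, 7.94, 8.24 and 8.02 in WT brain (0.50, adjusted p = 0.00068, limma). Higher in dKO were also Sfrs15, Sfrs18, Sfrs8, Sfrs16 and Sfrs17b, by 0.33 to 0.55. Higher in WT were also Sfrs14, Sfrs17b, Sfrs8 and Sfrs11, by 0.27 to 0.58. Of these, Sfrs11 has a current SR protein symbol (Srsf11), and the others are SR-like and carry other current symbols, such as Scaf4 for Sfrs15 and Sfswap for Sfrs8. With quantile normalization alone Sfrs17b changed sign in both genotypes and Sfrs16 in dKO. Over the alternatives the WT change of Sfrs11 ran from 0.04 to 0.38 (adjusted p from 0.00492 to 0.812, limma). That of Sfrs8 ran from 0.05 to 0.39 (adjusted p from 0.00135 to 0.692, limma).

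Sfrs7 had the largest fall of the set in WT, with centred levels of 9.35, 9.35, 9.32 and 9.12 in WT spinal cord, against 9.94, 10.37, 10.01 and 10.39 in WT brain (change -0.89, SE 0.11, adjusted p = 6.53e-06, limma). In dKO its levels were 9.71, 9.86, 9.82 and 10.02 in spinal cord, against 10.31, 10.17, 10.24 and 10.08 in brain, and it was lower there as well. Sfrs6 was lower in WT (-0.67, adjusted p = 0.000379), and Sfrs12ip1, whose product interacts with that of Sfrs12, had -0.52 in dKO (adjusted p = 0.000224) and -0.65 in WT (adjusted p = 2.71e-05). The dKO and WT comparisons use separate arrays. Lower in both were 25 genes, 86.2% of those lower in dKO and 71.4% of those lower in WT, and higher in both were 5, Prpf38b, Prpf40b, Sfrs12, Sfrs17b and Sfrs8, of 10 higher in dKO and 8 higher in WT. None moved in opposite directions, against 9 of all 12204 genes. Over all genes 77% of those lower in dKO and 71.4% of those lower in WT were lower in both, and 2586 were higher in both, of 3299 higher in dKO and 3373 higher in WT.

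**Figure D4:**
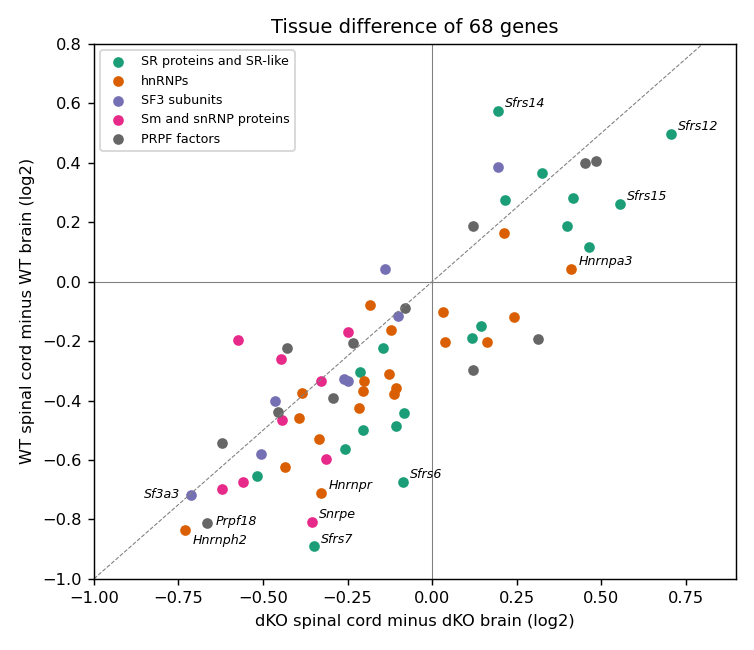
Change in gene level between spinal cord and brain (log2, array median subtracted) in dKO on the horizontal and in WT on the vertical axis, for the 68 tested genes by class, with a dashed line of equal change. The labelled genes were chosen after their values were seen. The Sm and snRNP genes all lie at negative values on both axes, and Sfrs7 and Sfrs6 lie below the line.

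The tissue split of the set depended on the scaling. As deposited, 1 gene was higher and 46 lower in dKO, and 2 and 52 in WT, where all genes had median changes of -0.31 and -0.23 and 10.1% higher and 52.6% lower in dKO, 12.7% and 44% in WT. Quantile normalization gave 6 higher and 40 lower in dKO and 2 and 47 in WT. Of all 12187 genes then tested, 778 were higher and 7291 lower in dKO, and 1092 and 6059 in WT. Of the calls, 13% were upwards in the set and 9.64% over all genes in dKO, and 4.08% and 15.3% in WT. Quantile normalization followed by subtraction of the array median, an alternative added after the data were seen, gave 19 higher and 13 lower in dKO and 9 and 22 in WT. All genes then gave 3029 higher and 2380 lower in dKO, and 3003 and 2628 in WT. Upward calls were 59.4% in the set and 56% over all genes in dKO, and 29% and 53.3% in WT. The Sm and snRNP and the SF3 medians were negative in both genotypes under all 4 scalings, and so were the PRPF medians. The SR median in dKO was 0.12 and changed sign, to -0.20 as deposited and -0.13 with quantile normalization alone, and the hnRNP median in dKO was -0.16 but 0.16 with both steps.

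Other lists differed between the tissues as well. In dKO 10 of 16 and in WT 11 of 16 proliferation genes were lower in spinal cord, all 7 muscle genes were higher in both, 7 of 8 forebrain genes were lower in both and 12 of 13 Hox genes higher in both. Of the SR kinases, Clk1 was lower in WT spinal cord than in WT brain (-0.80, adjusted p = 0.000124) and so was Clk4 (-0.32, adjusted p = 0.0134, limma), and in dKO they had -0.15 and 0.21 and were not called. The part of cell makeup in the splicing genes' tissue differences was not tested.

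**Figure D5:**
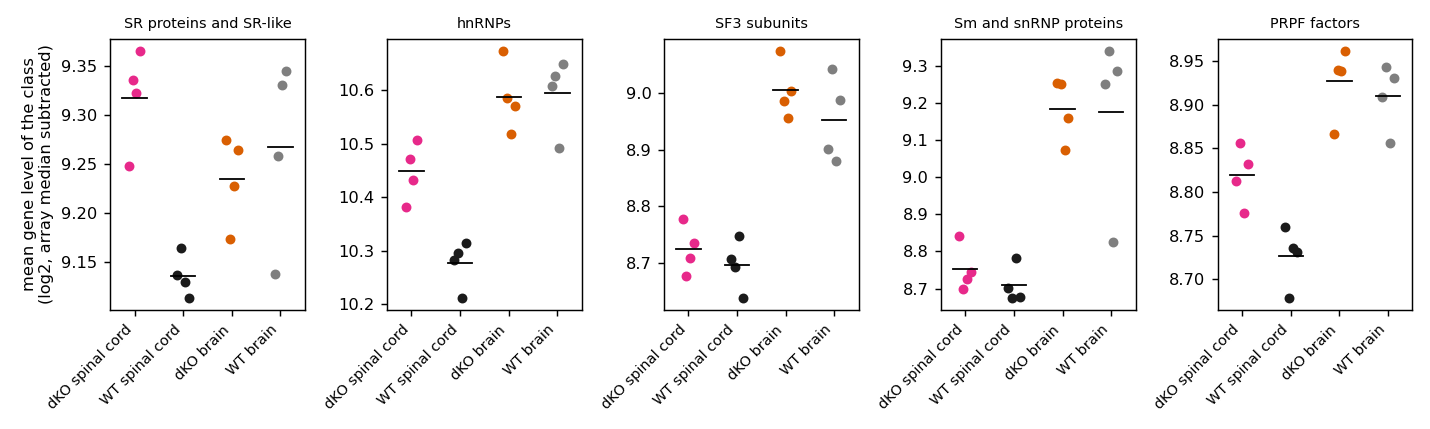
Mean gene level of each class on each array (log2, array median subtracted), with the group mean as a bar. The SR and hnRNP means of dKO spinal cord, 9.25 to 9.37 and 10.38 to 10.51, lie above those of WT spinal cord, 9.11 to 9.16 and 10.21 to 10.31, while as deposited the SR means of 9.10 to 9.21 in dKO and 8.86 to 9.21 in WT spinal cord, and the hnRNP means of 10.21 to 10.35 and 10.06 to 10.36, overlap. The Sm and snRNP means are lower on all spinal cord arrays except that WT brain 3, at 8.83, lies within their range.

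By exon index 383 of 1383 probe sets in 61 genes differed between spinal cord and brain in dKO, 27.7% against 26.5% of all, and 328 in 63 genes in WT, 23.7% against 22.4%. In both genotypes 208 moved in the same direction, 54.3% of the dKO and 63.4% of the WT calls, and 0 moved in opposite directions. Over all probe sets tested the shares were 56.9% and 67.5%, with 19 in opposite directions. Prpf19 probe set 4640131 had an index of -2.23, -2.19, -2.22 and -2.35 in dKO spinal cord, against -4.49, -3.86, -3.80 and -4.23 in dKO brain (change 1.85, adjusted p = 3.75e-06), and changed by 1.89 in WT (adjusted p = 4.85e-06, limma). Its own value averaged 6.64 in dKO brain and 6.69 in WT brain, below the floor of 6.73, so that its brain index is that of a dim probe set. Hnrnpk probe set 4592305 averaged 0.79 ± 0.07 in dKO spinal cord and -0.03 ± 0.10 in dKO brain (0.82, adjusted p = 1.36e-05), and changed by 1.02 in WT (adjusted p = 4.28e-06). Sf3b3 probe set 5433713 changed by 1.56 in dKO and 1.40 in WT, and Hnrnpa3 probe set 5009004 by -0.81 and -0.92.

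Others among the lowest p-values were named in 1 genotype. In dKO they were Sfrs14 probe set 5510760 (1.94), Hnrnph2 probe set 5368244 (1.90), Sf3a1 probe set 4534840 (1.41) and Sfrs18 probe set 5355002 (0.92), with adjusted p-values of 2.62e-05 to 8.01e-05. In WT they were Sfrs7 probe set 4555811 (1.42), Sfrs15 probe set 5453090 (1.31), Snrpb probe set 4782649 (-0.84) and Hnrnpl probe set 4843525 (-0.75), with adjusted p-values of 4.46e-05 to 0.000121. Of these, the Sfrs15 probe set, at 6.16 in WT brain, and the Hnrnph2 probe set, at 6.41 in dKO brain, also averaged below the floor there. The Sfrs7 probe set is the one whose index was lower in dKO than in WT spinal cord. Without the 4 muscle-rich arrays 211 probe sets were called in dKO and 186 in WT. These 2 counts are given without the share over all probe sets in that setting, so they show nothing particular to the set.

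The genes of the set best known in splicing were described in the deposited scale. Hnrnpa1, a splicing repressor, averaged 11.71 ± 0.08 in dKO and 11.65 ± 0.12 in WT spinal cord, and 11.99 ± 0.17 in dKO and 11.98 ± 0.17 in WT brain. Hnrnpk, which binds C-rich RNA, averaged 11.82 ± 0.03 in dKO and 11.70 ± 0.16 in WT spinal cord, and 12.34 ± 0.06 in dKO and 12.27 ± 0.11 in WT brain. Sfrs1, the best-studied SR protein gene, averaged 10.10 ± 0.08 in dKO and 9.89 ± 0.15 in WT spinal cord, and 10.67 ± 0.11 in dKO and 10.69 ± 0.15 in WT brain (SD, n = 4 in each group). None of the 3 was called between genotypes.

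Sfrs2, Sfrs3, Sfrs4 and Sfrs10, further SR or SR-like genes, averaged 10.20 ± 0.03, 11.03 ± 0.20, 10.09 ± 0.04 and 9.82 ± 0.12 in dKO spinal cord, against 9.90 ± 0.27, 10.96 ± 0.18, 9.999 ± 0.12 and 9.70 ± 0.27 in WT spinal cord. Hnrnpa2b1, Hnrnpl, Hnrnpu and Hnrnph1 averaged 10.03 ± 0.10, 10.56 ± 0.06, 11.50 ± 0.04 and 11.29 ± 0.12 in dKO spinal cord, against 9.89 ± 0.17, 10.58 ± 0.17, 11.24 ± 0.19 and 11.17 ± 0.21 in WT spinal cord. Sf3a1, the Sm genes Snrpb and Snrpd1, and Prpf8, the gene of the scaffold of the catalytic core, averaged 8.94 ± 0.07, 7.93 ± 0.18, 7.26 ± 0.05 and 10.12 ± 0.08 in dKO spinal cord, against 8.91 ± 0.23, 7.91 ± 0.33, 7.52 ± 0.28 and 10.11 ± 0.22 in WT spinal cord. In 11 of these 12 genes the SD of the WT group was the larger one, Sfrs3 being the exception, and none was called.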

How the data were processed

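Affymetrix mouse exon arrays were read as deposited, with 1 linear intensity per probe set and array. The submitters' processing notes name Affymetrix Power Tools, PLIER and the build mm8, while versions and PLIER settings were not found in the labels. RNA was extracted with Trizol and labelled by Affymetrix's sense target method, per the labels' protocols. The number of arrays limits the precision.

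Probe sets were named through the platform annotation (303629 with 1 symbol, 5892 with several, 316013 unnamed here), and 48 of the 69 symbols were current in RefSeq GRCm38.p6, 20 were synonyms and 1 matched several genes. Values were taken as log2(intensity + 16). Groups were compared with limma 3.58.1 in R 4.3.3 on all 16 arrays, with data.table (version 1.17.8), genotypes as deposited and tissues with array medians subtracted. The exon index was tested where 5 or more probe sets of a gene exceeded the floor of 6.73, and 78 probe sets at 0 throughout were left out. Named are the called genes, up to 10 in each direction, or the 4 of lowest adjusted p where fewer than 4 were called, up to 8 probe sets per comparison with at most 2 per gene, and a list of well-known genes. The genes and lists were chosen with earlier results of these data known.

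On simulated spinal cord data of 12204 genes, 46 of 100 changes of 0.5 and 98 of 100 of 1 were recovered with 9 false calls; for the index, 82 of 100 changes of 1 and 98 of 100 of 2, with 14 false calls of 181531. No 2 arrays were identical. Brain arrays of the same number deviated together (correlation 0.227 to 0.374 in all 4 pairs) and spinal cord arrays did not (-0.0667 to 0.000268). The numbers of the titles were thus taken to pair the brain arrays. The p-values given in the results come from fits without this pairing, and it enters only the fits with a block described below.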

Additional observations from a re-analysis of the deposited data

Results flagged for a closer look

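Single arrays stood apart from the other 3 of their group in 5 of 112 gene-level groups and 5 of 96 exon-index groups checked for the named genes and probe sets, and chance flags about 1 in 20 groups. At gene level, as deposited, dKO spinal cord 3 had the low Sf3a3 level of 8.28 against 8.59 to 8.65, dKO spinal cord 2 had Snrpe at 8.42 against 8.75 to 8.77 and Sfrs14 at 8.64 against 8.57, and WT spinal cord 1, a muscle-rich array, had Hnrnpr at 9.95 against 9.73 to 9.76 and Sfrs15 at 8.78 against 8.42 to 8.43.

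By exon index, Hnrnph2 probe set 5368244 stood at -1.84 on dKO spinal cord 4 against -1.04 to -0.90 on the others. Sfrs14 probe set 5510760 stood at -1.27 on dKO brain 1 against -1.08 to -1.05, and at 0.51 on WT spinal cord 4 against 0.05 to 0.13, and Sfrs14 probe set 4471435 at -0.24 on dKO brain 4 against 0.00. Sf3a1 probe set 4534840 stood at -0.97 on WT spinal cord 4 against -0.83 on the other WT spinal cord arrays.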

How the results depend on the processing

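The count of genes called in dKO against WT spinal cord, 2 (both higher), became 0 with no filter on dim genes, 4 (3 higher, 1 lower) with the floor at the 75th percentile, 10 (all higher) with array medians subtracted, 10 (9 higher, 1 lower) with quantile normalization, 4 (all higher) without both brain arrays of number 3, and 0 without the 4 muscle-rich arrays. Added after the data were seen, array medians subtracted gave 0 without those 4 arrays and 5, all higher, without WT spinal cord 1. Leaving out 1 array gave 0 to 3 genes: 3 higher without WT spinal cord 1, 1 higher without WT 2, dKO 1 or dKO 3, 1 lower (Sfrs14) without WT 4, and 0 without WT 3, dKO 2 or dKO 4. The 8 probe sets called by exon index there became 1, none of those 8, without the muscle-rich arrays, and 2 to 11 without 1 array: 5 without WT 1, 3 without WT 3 or dKO 3, and 2 without dKO 2 or dKO 4. Between tissues, the counts of probe sets called became 211 in dKO and 186 in WT without the muscle-rich arrays, given here without the share over all probe sets. The cause of these shifts was not tested, beyond the fewer arrays or genes that some settings use.

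Single genes reversed as follows. In dKO against WT brain, where neither was called, Sf3b5 had -0.027 with probe sets above the floor, and Sfrs16 had 0.016 in that setting and 0.00052 by the mean over probe sets. In dKO spinal cord against dKO brain, Prpf4b had -0.040 with probe sets above the floor and -0.0062 as deposited, and quantile normalization gave -0.045 for Sfrs16 and -0.30 for Sfrs17b. In WT spinal cord against WT brain, Sf3b5 had -0.82 with probe sets above the floor, -0.0033 by the mean and -0.21 with quantile normalization, which gave -0.12 for Sfrs17b.

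With the replicate number as a block, the counts of genes were 2 (spinal cord, genotypes), 0 (brain, genotypes), 41 (dKO, tissues) and 43 (WT, tissues), and of probe sets 7, 0, 356 and 302; the block in a fit of the 8 brain arrays alone also gave 0 and 0. The block moved no count by over 1.5 times.

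In simulated spinal cord data, 46 of 100 genes with a change of 0.5 were recovered, so that changes of the size reported here can be missed with 4 arrays a group.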
